A study of Mus musculus with 4 samples.

Results

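The replication and mitosis genes described here are 36 genes of the mouse, taken by symbol from a fixed list out of the 32289 genes in the count tables of an inner ear organoid study. Of these, 15 are S-phase members, whose products license, build or supply the replication fork, and 21 are mitotic members, whose products act from chromosome condensation to cell division. All 36 were found in the tables and all had counts in every library. The rule uses gene names and no measured level, but the list was chosen with earlier results of these data known.

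The study profiled single cells of organoids grown from the Atoh1-nGFP embryonic stem cell line, in which a nuclear GFP reports on Atoh1, a transcription factor needed for hair cells to form. It holds 4 droplet libraries made with 10x Genomics chemistry: 1 at 16 days in vitro, 1 at 20 days, and 2 at 21 days, from a GFP high and a GFP low gate. The protocol speaks of sorting on GFP for organoids of days 16 to 21, while only the day 21 titles name a gate, so the gate behind the day 16 and day 20 libraries is not known here. The labels call the input both single nuclei and cells, name no treatment or genotype other than the line, and do not say how many organoids or cultures were pooled. With 1 library per group there is no replicate, so no test was run and every interval below covers counting error only.

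Cells copy their DNA in S phase and divide in mitosis. The MCM proteins Mcm2 to Mcm7 form a ring with 1 copy of each, which is the core of the replicative helicase, so cells that replicate need all of the subunits together. E2F factors switch on most S-phase genes at the end of G1, and the DREAM and MuvB complexes hold back and then switch on mitotic genes through a promoter element called the CHR. Hair cells of the mammalian inner ear leave the cell cycle as they form and are not replaced by division in the adult.

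After filtering, the libraries of day 16, day 20, GFP high and GFP low kept 3376, 4348, 3435 and 3686 cells, with median depths of 15225.5, 8835.5, 28868 and 22221 UMIs (unique molecules counted) per cell and 42325800 to 107308236 UMIs per library. Cells fell into 27 clusters, computed with all pathway genes of this report left out, and were named from marker lists. The label on every sample is otic lineage, but clusters with neuron, mesenchyme, epidermis and Merkel cell markers were present in every library beside hair-cell-like clusters. Hair-cell-like cells numbered 190, 147, 2222 and 819 in the same order. A pair of libraries shared between 1 and 8 cell barcodes. Levels are given as CPM, the UMIs of a gene scaled to a fixed total of UMIs of the same cells.

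The promoters of the members differ in the short elements they hold, and 6 are shown to make this visible: 3 of MCM genes and 3 of mitotic genes. Each runs from 250 bases before to 50 bases after the transcription start, as RefSeq gives it on GRCm38.p6. Capitals mark matches on either strand. The E2F-like letters searched were TTTGGCG and its variants, with CC (TTTCCCG), with GC (TTTGCCG) or with CG (TTTCGCG) in the middle. The CHR letters were TTTGAA, and CCAAT, known to be bound by NF-Y, was the last. Matches that overlap are capitalised as 1 run.
Mcm6 promoter, chr1:128359656-128359955, minus strand: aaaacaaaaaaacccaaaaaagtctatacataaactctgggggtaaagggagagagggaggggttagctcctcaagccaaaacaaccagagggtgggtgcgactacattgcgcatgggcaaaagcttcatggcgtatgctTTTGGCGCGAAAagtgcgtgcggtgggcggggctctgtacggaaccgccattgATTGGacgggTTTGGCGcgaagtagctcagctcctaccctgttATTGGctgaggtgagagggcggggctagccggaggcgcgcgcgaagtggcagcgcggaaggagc
Mcm5 promoter, chr8:75109259-75109558, plus strand: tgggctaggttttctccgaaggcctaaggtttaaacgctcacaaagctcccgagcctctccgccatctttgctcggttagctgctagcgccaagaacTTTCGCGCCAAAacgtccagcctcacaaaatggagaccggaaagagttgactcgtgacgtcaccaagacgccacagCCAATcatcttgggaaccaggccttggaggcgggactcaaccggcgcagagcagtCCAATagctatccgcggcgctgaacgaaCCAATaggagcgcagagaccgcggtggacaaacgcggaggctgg
Mcm3 promoter, chr1:20820263-20820562, minus strand: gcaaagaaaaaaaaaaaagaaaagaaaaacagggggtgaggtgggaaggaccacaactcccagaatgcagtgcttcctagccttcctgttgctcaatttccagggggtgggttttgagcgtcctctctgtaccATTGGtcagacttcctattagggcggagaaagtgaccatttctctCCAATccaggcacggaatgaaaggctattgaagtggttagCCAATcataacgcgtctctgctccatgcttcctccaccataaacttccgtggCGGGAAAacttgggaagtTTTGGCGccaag
Cdk1 promoter, chr10:69352863-69353162, minus strand: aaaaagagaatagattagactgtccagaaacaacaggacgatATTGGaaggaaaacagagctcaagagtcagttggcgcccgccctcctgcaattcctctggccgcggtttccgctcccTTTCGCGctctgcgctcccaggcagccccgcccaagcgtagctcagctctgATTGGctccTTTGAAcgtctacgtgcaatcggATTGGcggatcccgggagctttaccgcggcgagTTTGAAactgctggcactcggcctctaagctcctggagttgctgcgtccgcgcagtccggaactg
Top2a promoter, chr11:99024140-99024439, minus strand: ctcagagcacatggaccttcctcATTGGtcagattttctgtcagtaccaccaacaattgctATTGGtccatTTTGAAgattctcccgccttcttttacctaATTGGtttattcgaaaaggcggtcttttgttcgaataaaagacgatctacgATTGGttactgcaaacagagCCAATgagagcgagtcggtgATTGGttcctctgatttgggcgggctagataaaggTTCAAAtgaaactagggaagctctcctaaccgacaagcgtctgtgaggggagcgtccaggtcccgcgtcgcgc
Ube2c promoter, chr2:164769679-164769978, plus strand: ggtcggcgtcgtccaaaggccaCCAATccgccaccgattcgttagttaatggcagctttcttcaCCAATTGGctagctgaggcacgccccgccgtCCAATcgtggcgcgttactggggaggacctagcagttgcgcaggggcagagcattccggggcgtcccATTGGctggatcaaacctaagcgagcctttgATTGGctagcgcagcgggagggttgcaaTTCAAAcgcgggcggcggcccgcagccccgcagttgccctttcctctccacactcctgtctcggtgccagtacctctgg

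The Mcm6 window held 3 E2F-like matches, at -110, -105 and -47 from the start, of which those at -110 and -105 overlap on opposite strands, and 2 CCAAT matches. The Mcm5 and Mcm3 windows each held 2 E2F-like and 3 CCAAT matches, and those of Mcm5 at -153 and -148 also overlap. None of these 3 windows held the CHR letters, whereas the Cdk1 and Top2a windows each held 2 CHR matches and the Ube2c window 1. Cdk1 also held 1 E2F-like match, at -131. Over the members, promoters of 13 of the 15 S-phase genes and 18 of the 21 mitotic genes were matched, some genes with more than 1 start. Mcm4, Gins2, Ccna2, Aurkb and Tpx2 had no entry. E2F-like letters were in 46.7% of the S-phase promoters (7 of 15) and 15.8% of the mitotic promoters (3 of 19), against 6.70% of all 32851 promoters. The CHR letters showed the reverse order, with 6.67% of the S-phase promoters, 73.7% of the mitotic promoters and 17.9% of all promoters. CCAAT was common to both, in 73.3% and 84.2%, against 37.4% of all promoters. A match is a description of letters and not a bound site.

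By library, the mitotic members were at their lowest in GFP high without exception, and 13 of the 21 were at their highest in GFP low. The share of all genes lowest or highest in each library was not computed. Top2a, the topoisomerase that untangles sister chromatids, was at 52.1 and 40.7 CPM on days 16 and 20, and at 17.8 CPM in GFP high against 78.7 CPM in GFP low. Cdk1, the kinase that drives entry into mitosis, was at 36.8, 43.6, 12.1 and 42.6 CPM in the same order. Ube2c, which loads ubiquitin on the substrates of the anaphase-promoting complex, was at 69.0, 92.9, 22.6 and 83.4 CPM. For all of these, GFP high stood below the other libraries.

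The cyclins, kinases and spindle members had the same lowest library. Ccnb1, which with Cdk1 forms the kinase of mitotic entry, was at 17.6, 15.9, 7.96 and 34.7 CPM, and Ccna2, the cyclin of S phase and G2, at 13.7, 18.4, 5.70 and 20.2 CPM. Aurkb and Birc5, partners in the chromosomal passenger complex, were at 3.78 and 9.43 CPM in GFP high and at 15.4 and 34.1 CPM in GFP low. Aurka and Plk1, kinases of the spindle poles, were at 3.27 and 5.44 CPM in GFP high and 11.8 and 14.0 CPM in GFP low. Among the motors, Kif11, which pushes the poles apart, was at 12.3, 10.6, 3.63 and 12.2 CPM over the 4 libraries. Over all 21 mitotic members, the level in GFP high ran from 1.97 CPM for Bub1 to 28.7 CPM for Cenpf, and 8 of 21 reached 10 CPM there, against 16 at day 16, 18 at day 20 and 21 in GFP low.

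The S-phase members mostly followed the same order, with 13 of 15 lowest in GFP high and 10 of 15 highest in GFP low. Again no share over all genes was computed. Without the pluripotent-like cluster, Rrm2 and Mcm5 were at 18.7 and 10.5 CPM in GFP low, below their day 16 levels over all cells. Rrm1, at 25.6 CPM, stayed near its day 16 level of 25.3 CPM. Rrm2, the regulated subunit of the enzyme that makes deoxyribonucleotides, was at 21.8 and 29.4 CPM on days 16 and 20, and at 5.23 CPM in GFP high against 32.3 CPM in GFP low. Mcm5 was at 15.3, 8.84, 4.45 and 29.0 CPM. Pcna, the sliding clamp of the polymerases that also serves in DNA repair, varied least among these, with 74.9, 61.0, 48.1 and 71.9 CPM. Cdt1, which loads the MCM ring, was at 9.27, 6.92, 3.71 and 15.3 CPM, and Chaf1b, a subunit of the histone chaperone that follows the fork, at 10.8, 6.66, 1.97 and 10.1 CPM. Cdc6, the partner of Cdt1 in loading, stayed under 5 CPM in all 4, with 2.30, 1.30, 3.21 and 4.69 CPM. In GFP high 5 of 15 S-phase members reached 10 CPM, against 13, 8 and 14 in the day 16, day 20 and GFP low libraries. Mcm6 alone had its highest level in GFP high, with 36.7, 21.5, 106 and 37.4 CPM.

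Between day 16 and day 20 few members differed. A gene is called higher or lower here when its CPM differ by a ratio of 2 or more, its counting interval leaves out a ratio of 1, and it reaches 10 CPM on either side. By this rule 1 of the 13 S-phase members tested was lower at day 20, against 6.76% of 9885 genes, and 0 were higher, against 5.04% of genes higher and 11.8% called either way. That gene was Uhrf1, which recruits the maintenance DNA methyltransferase to newly copied DNA, with 14.1 CPM at day 16 and 5.55 at day 20 (ratio 0.395, 95% interval 0.340 to 0.457). Of 18 mitotic members tested, 0 were called either way. The median log2 ratio was -0.40 for S-phase members and 0.13 for mitotic members, beside -0.19 for all genes tested.

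Between the day 21 gates, the mitotic members fell together in GFP high. All 21 were lower, against 7.72% of 10542 genes lower and 14.7% called either way, with a median log2 ratio of -1.66 beside -0.04 for all genes tested. The ratios ran from Bub1, a spindle checkpoint kinase, at 1.97 CPM in GFP high and 11.97 in GFP low (ratio 0.164, interval 0.141 to 0.190), to Tpx2, a spindle assembly factor, at 12.9 and 28.7 CPM (ratio 0.450, interval 0.421 to 0.480). Of 14 S-phase members tested, 10 were lower and 1 was higher, against 6.95% of genes higher, with a median of -1.49. The lower ones were Mcm2, Mcm3, Mcm4, Mcm5, Mcm7, Rrm2, Gins2, Cdt1, Uhrf1 and Chaf1b, that is, 5 of the helicase subunits, a nucleotide enzyme, a GINS subunit of the helicase, a licensing factor, the methylation factor and a histone chaperone. Pcna, Rrm1 and Tyms, the clamp and 2 enzymes of nucleotide supply, did not reach the fold. The gene that was higher was Mcm6 (ratio 2.84, interval 2.74 to 2.95). As a mean of CPM per cell, which weighs each cell alike, 8 mitotic and 7 S-phase members were called. That measure has no counting interval, so only the ratio and the minimum level were applied. The share of all genes called was not computed for it, so these counts have no background.

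A small cluster of GFP low carried much of this difference. It held 89 GFP low cells, 10 at day 16, 3 at day 20 and 1 in GFP high, had all its pluripotency markers raised (Dppa5a, Pou5f1 and Utf1 among its leading genes) and a median of 81489 UMIs, 3.71 times the median depth of the libraries its cells came from. With 8.10% of the UMIs of GFP low it held 47.2% of the S-phase UMIs and 54.7% of the mitotic UMIs of that library. Mcm3 was at 266 CPM, Mcm5 at 238, Top2a at 558 and Ube2c at 622 CPM in it, above every other named class with 50 or more cells, as were the sums of both member groups. Some clusters that stayed unnamed had more mitotic RNA. The cluster led by Cryba1, Cryaa and Cryge had 4963 CPM of mitotic members in 114 cells of day 20, beside 4230 CPM in pluripotent-like cells of GFP low. The cluster led by Ube2c, Top2a and Hes5 had 10670 CPM in 21 cells of GFP low. In GFP high, an unnamed cluster led by Mia, Oc90 and Otol1 held 30.6% of the mitotic UMIs. Since nearly all of the pluripotent-like cells are from 1 library, that class and the library cannot be told apart.

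Without that cluster, an alternative added after seeing the data, 3 of 11 mitotic members tested stayed lower in GFP high, Top2a, Cdk1 and Prc1, a bundler of the central spindle, against 7.36% of genes. Top2a was then at 14.98 CPM in GFP high and 36.5 in GFP low (ratio 0.410, interval 0.386 to 0.436). Of 10 S-phase members tested, 3 stayed lower, Mcm5, Rrm2 and Gins2, and Mcm6 stayed higher, now at 106 against 16.7 CPM (ratio 6.36, interval 6.02 to 6.72), against 6.27% of genes higher. The medians moved to -0.71 for S-phase and -0.86 for mitotic members. Few cells also carried the mitotic counts of GFP high. Over all its cells, with the 1 pluripotent-like cell included, the 10 cells with most UMIs of the gene held 59.5% of Top2a and 63.0% of Ube2c but 5.0% of Mcm6.

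**Figure D1:**
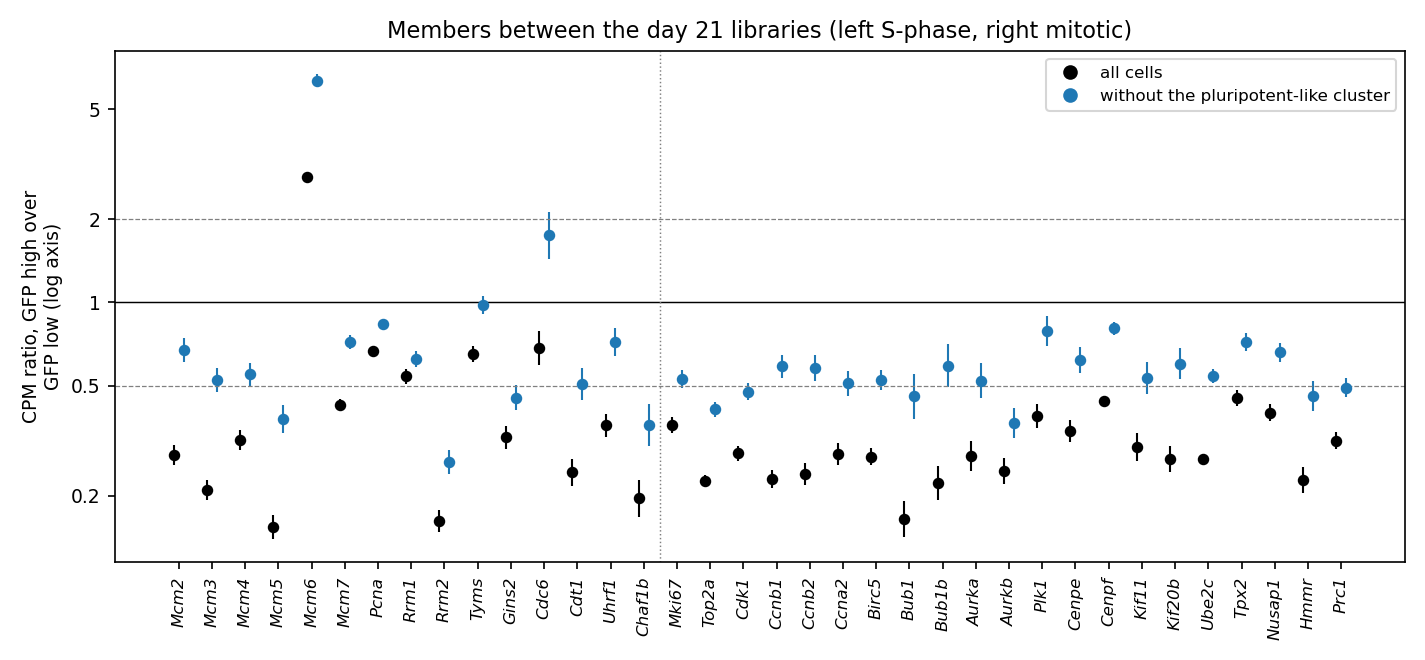
CPM ratio of each member, GFP high over GFP low, on a log axis, for all cells (black) and without the pluripotent-like cluster (blue); bars are 95% counting intervals, dashed lines mark ratios of 2 and 0.5, and S-phase members stand left of the dotted line. All 21 mitotic members lie under 0.5 in black, most move to or above that line in blue, and Mcm6 alone lies above 2 in both.

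Among hair-cell-like cells no mitotic member was called between the gates. Of 21, 2 reached 10 CPM, Cenpf and Tpx2, and 0 were called, against 1.70% of 9376 genes lower, 3.63% higher and 5.32% either way. Cenpf, a kinetochore protein, was at 11.9 CPM in GFP high and 10.5 in GFP low (ratio 1.14, interval 0.976 to 1.33). Of 5 S-phase members tested 1 was called, Mcm6, at 138 CPM in GFP high and 21.8 in GFP low (ratio 6.32, interval 5.75 to 6.97). The 4 hair-cell-like clusters were unequally filled, as a sort on GFP can set: an Atoh1-rich cluster held 842 cells in GFP high and 67 in GFP low, a Cib3 cluster 839 and 358, an Ocm cluster 450 and 81, and a Bmp2 cluster 91 and 313. Pcna was at 45.5 and 45.1 CPM, with an interval of 0.938 to 1.09 for the ratio. The median log2 ratio was 0.38 over the 5 S-phase members and -0.23 over the 2 mitotic members, beside 0.01 for all genes tested.

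In cells that were not hair-cell-like, 9 of 21 mitotic and 9 of 14 S-phase members were lower in GFP high, against 5.0% of 10473 genes lower and 8.84% either way, and 0 were higher, against 3.84%. The medians were -0.81 and -1.08, beside -0.02 for all genes tested. This class was also filled unequally, with 232 neuron-like cells in GFP high and 1138 in GFP low. Without the pluripotent-like cluster 0 mitotic and 2 S-phase members were called, 1 higher and 1 lower. The mitotic count was 1 with coarser clustering or a marker gate, and 21 without the 10 cells with most UMIs of each gene. The share of all genes called was not computed for these alternatives, so their counts have no background. The 10 cells were left out on each side. Over all cells, such cells held 59.5% of Top2a and 63.0% of Ube2c UMIs in GFP high, against 19.8% and 21.2% in GFP low. Mcm6 was at 50.5 CPM in GFP high and 41.8 in GFP low there, and 1427 of its 1950 UMIs in GFP high came from an unnamed cluster of 157 such cells, median 51361 UMIs, led by Otol1, Pvalb and Otof, which raised the markers of 2 lists alike and so stayed unnamed. With coarser clustering or a marker gate the ratio turned to 0.398 and 0.385, so no direction is given for Mcm6 in this class.

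Summed over members, the classes differed more in mitotic than in S-phase RNA. Epidermis-like cells had both kinds, with 589 CPM of S-phase and 1632 CPM of mitotic members at day 16, and 431 and 793 CPM in GFP high. Mesenchyme-like cells had 455 to 644 CPM of mitotic members, while their S-phase sum ran from 416 CPM at day 16 to 175 CPM in GFP high (interval 153 to 199), below the 209 CPM of the neuron-like cells there. Neuron-like cells had 36.01 to 69.3 CPM of mitotic members. Merkel-cell-like cells of day 20 had 102 CPM of S-phase and 20.9 CPM of mitotic members, and the hair-cell-like cells outside the Atoh1-rich cluster had 113 and 54.3 CPM in GFP high. Single members differed likewise. Top2a was at 76.5 CPM in epidermis-like, 75.7 CPM in mesenchyme-like and 2.78 CPM in hair-cell-like cells of GFP high, and Mki67, the antigen used to mark cycling cells, at 71.9 CPM in epidermis-like and 1.22 CPM in hair-cell-like cells. Pcna was spread more evenly, at 45.5 CPM in hair-cell-like, 57.4 CPM in neuron-like and 57.4 CPM in Merkel-cell-like cells. Among the named classes the Atoh1-rich hair-cell-like cells stood apart, with 454 CPM of S-phase members in GFP high, close to the epidermis-like value, beside 37.6 CPM of mitotic members. The unnamed cluster led by Otol1, Pvalb and Otof resembled them, with 299 CPM of S-phase and 39.1 CPM of mitotic members in GFP high.

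**Figure D2:**
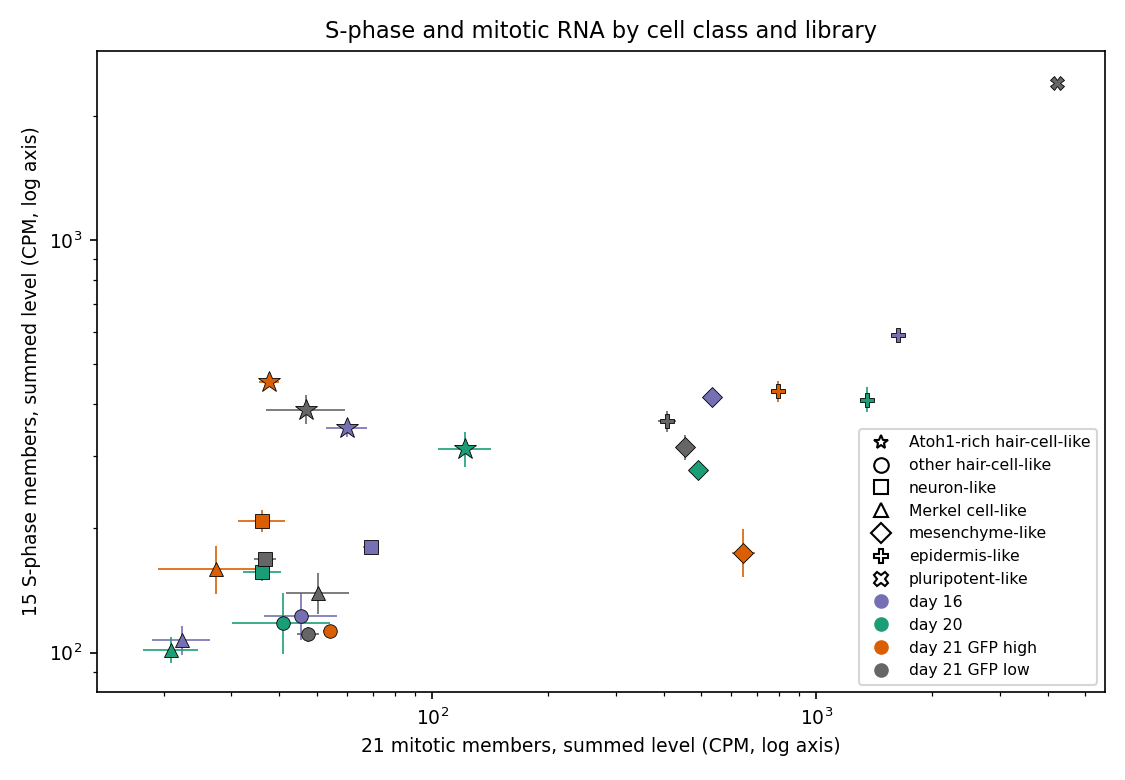
Summed level of the 15 S-phase members (vertical) against the 21 mitotic members (horizontal), in CPM on log axes, for each named cell class (symbol) and library (colour) with 50 or more cells; bars are 95% counting intervals. Atoh1-rich hair-cell-like cells (stars) lie at 311 to 454 CPM of S-phase members with 37.6 to 122 CPM of mitotic members, left of the epidermis-like and mesenchyme-like cells, whose mitotic sums are 409 CPM or more.

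The Atoh1-rich cluster was 1 of 4 hair-cell-like clusters, the others being led or marked by Cib3, Ocm and Bmp2. Its Atoh1 level was 327 and 355 CPM on days 16 and 20, 353 CPM in GFP high and 300 CPM in GFP low. In GFP high it held more Egfp (8937 against 2312 CPM) than the other hair-cell-like cells. It was picked as the hair-cell-like cluster with the highest Grp level. Its Grp in GFP high (320 against 81.0 CPM) therefore describes the choice and is not a result. At day 16 the other hair-cell-like cells had 233 CPM of Atoh1, so there the contrast in Atoh1 did not reach the fold. Its S-phase sum rested on 1 gene: without Mcm6 it was 138 CPM in GFP high, beside 99.4 CPM in the other hair-cell-like cells.

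Mcm6 was at 316 CPM in Atoh1-rich and 13.6 CPM in other hair-cell-like cells of GFP high (ratio 23.3, interval 21.4 to 25.5). In GFP low it was at 252 and 2.86 CPM (ratio 88.3, interval 66.3 to 120). At day 16 it was at 184 and 16.3 CPM (ratio 11.3, interval 7.87 to 16.9), and at day 20 at 209 and 13.6 CPM (ratio 15.4, interval 9.30 to 27.3). The Atoh1-rich cells were thus higher in each of the 4 libraries, and their Mcm6 level came near the 272 CPM of the pluripotent-like cells. By this ratio, with 1 CPM added to each side, Mcm6 stood first of 9651 genes in GFP low, 10th of 9603 in GFP high, 35th of 9391 at day 16 and 37th of 9144 at day 20. Counts were spread over cells: 86.6% of the 842 Atoh1-rich cells of GFP high had a Mcm6 UMI, with a median of 7, and the 10 highest cells held 6.26% of them. The 10 highest cells held 36.7% at day 16, 55.4% at day 20 and 46.9% in GFP low, where the cluster was small.

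The other helicase subunits did not share this level. Mcm3 was at 6.65, 2.99, 3.93 and 0.644 CPM in Atoh1-rich cells of day 16, day 20, GFP high and GFP low, and at 33.5, 18.9, 26.5 and 29.1 CPM in epidermis-like cells. Mcm5 was at 4.36, 0.746, 1.59 and 2.58 CPM in the Atoh1-rich cells and at 29.8, 18.4, 32.6 and 27.2 CPM in epidermis-like cells. Mcm4 was at 6.42, 6.72, 5.21 and 5.79 CPM against 47.1, 45.5, 29.9 and 28.5 CPM. Each of these subunits stood below the epidermis-like level in each of the 4 libraries. Mcm2 and Mcm7 did not separate the classes in this way: Mcm2 was at 16.5 and 17.1 CPM at day 16 and 7.76 and 19.7 CPM in GFP high, and Mcm7 at 25.4 and 34.5 CPM in GFP high and 35.4 and 33.8 CPM in GFP low. Mcm6 went the other way, with 184 to 316 CPM in Atoh1-rich and 25.1 to 37.7 CPM in epidermis-like cells.

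Mcm6 therefore took 87.8% of the UMIs of the 6 subunits in Atoh1-rich cells of GFP high (95% exact binomial interval 87.1 to 88.4), 83.9% in GFP low, 83.6% at day 20 and 76.1% at day 16. In epidermis-like cells the share was 15.1% to 18.1%, in pluripotent-like cells of GFP low 19.4%, and in neuron-like cells 9.29% to 13.1%. In mesenchyme-like cells it was 16.9% to 22.8% in the other libraries but 43.4% in GFP high (33 of 76 UMIs, interval 32.1 to 55.3), so a raised share was not limited to hair-cell-like clusters. There the raised share went with low levels of the other subunits. Without Mcm6 they summed to 33.5 CPM in mesenchyme-like cells of GFP high, against 79.6 to 132 CPM in the other libraries. The share is set between classes and not between genes, whose counts per transcript can differ. The other hair-cell-like clusters of GFP high lay between, with 51.7% in the Cib3, 24.7% in the Ocm and 30.2% in the Bmp2 cluster. In GFP low these were 16.0%, 6.35% and 5.08%. The unnamed cluster led by Otol1, Pvalb and Otof, whose hair cell markers were raised beside those of another list, came near the Atoh1-rich share. In GFP high Mcm6 took 80.8% there (1427 of 1767 UMIs, interval 78.8 to 82.6).

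**Figure D3:**
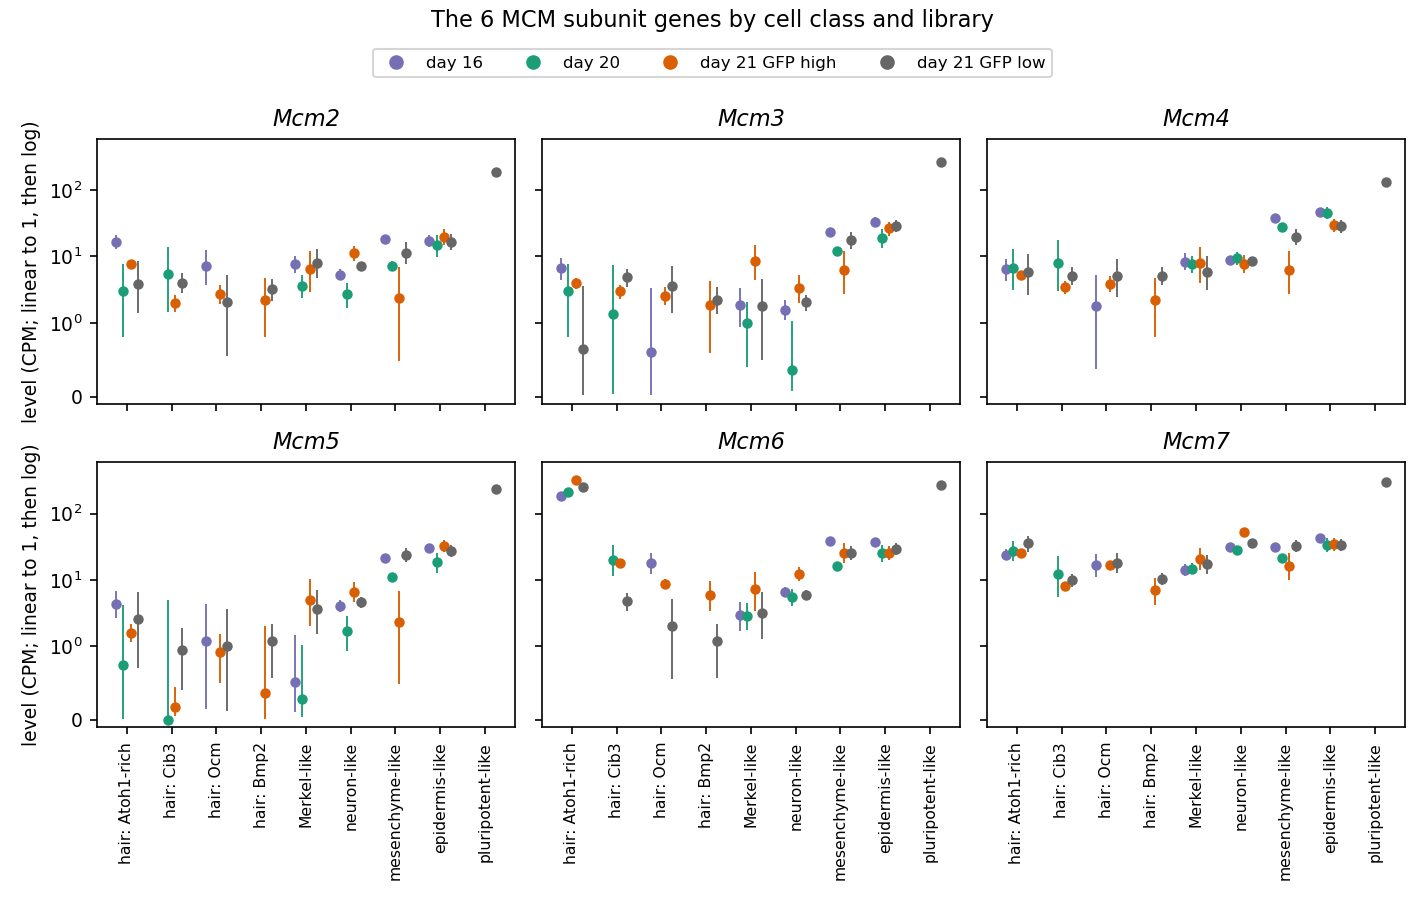
Level of each of the 6 MCM subunit genes in the hair-cell-like clusters and the other named classes with 50 or more cells, by library (colour), in CPM on an axis that is linear to 1 and logarithmic above; bars are 95% counting intervals. Mcm6 is at 184 to 316 CPM in the Atoh1-rich cluster, while the other subunits are highest in the pluripotent-like cells.

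Of the other members, Mcm7 was also higher in the Atoh1-rich cells, at 25.4 against 11.1 CPM in GFP high (ratio 2.28, interval 2.03 to 2.58) and 35.4 against 11.01 CPM in GFP low. At day 20 it was at 27.6 and 11.9 CPM, and at day 16, at 24.1 and 17.4 CPM, it did not reach the fold. In all, 2 of 5 S-phase members tested were higher in GFP high, where 7.83% of 9603 genes were higher and 15.9% were called either way, and 2 of 5 in GFP low, where the shares were 10.8% and 25.8% of 9651 genes. At day 16, 3 of 7 were higher and 0 lower, against 5.85% and 8.01% of 9391 genes and 13.9% either way. At day 20, 2 of 5 were higher and 0 lower, against 7.55% and 10.9% of 9144 genes and 18.4% either way. The median log2 ratio of the tested S-phase members was 0.86 in both day 21 libraries, 0.57 at day 16 and -0.07 at day 20, beside -0.00, -0.08, -0.05 and -0.13 for all genes tested. The other day 16 calls were Mcm2, at 16.5 and 7.60 CPM, and Uhrf1, at 12.4 and 4.34 CPM. In GFP high these stood apart in the same direction but under the minimum level, Mcm2 at 7.76 and 2.28 CPM and Uhrf1 at 6.84 and 1.53 CPM. Rrm1, the large subunit of ribonucleotide reductase, was lower in GFP low, at 7.73 against 22.4 CPM (ratio 0.344, interval 0.177 to 0.608), where 14.9% of genes were lower; in GFP high it was at 11.5 and 15.2 CPM. Tyms, thymidylate synthase, was at 17.1 and 8.98 CPM in GFP high and just missed the fold (ratio 1.91, interval 1.66 to 2.19).

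The mitotic members gave 0 calls of 2 tested in each day 21 library, where 8.05% and 14.9% of genes were lower. Top2a was at 2.12 CPM in Atoh1-rich and 3.24 in other hair-cell-like cells of GFP high, Mki67 at 0.602 and 1.66 CPM, and Cdk1 at 2.09 and 1.58 CPM. The 2 tested were Cenpf, at 10.6 and 12.9 CPM in GFP high and 7.73 and 10.7 CPM in GFP low, and Tpx2, at 6.73 and 10.7 CPM in GFP high and 13.5 and 14.6 CPM in GFP low. With a marker gate in place of clusters, 13 mitotic members were higher in GFP low and 0 were called in GFP high. The share over all genes was not computed under that gate, so the count of 13 has no background. At day 16 Cenpf was higher, at 14.9 and 5.43 CPM, as 1 of 1 tested, against 5.85% of genes higher. At day 20 3 of 4 were higher, against 7.55% of genes. These were Cenpf at 27.6 and 13.6 CPM, Top2a at 11.2 and 2.55 CPM, and Cenpe, a kinetochore motor, at 11.2 and 1.70 CPM. The day 20 values rest on 15 against 3 UMIs for Top2a (ratio 4.39, interval 1.24 to 23.7) and 15 against 2 for Cenpe (ratio 6.58, interval 1.53 to 59.3), in 71 and 76 cells. Mki67 and Cdk1, which mark cycling cells more widely, were under the minimum level at both days.

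**Figure D4:**
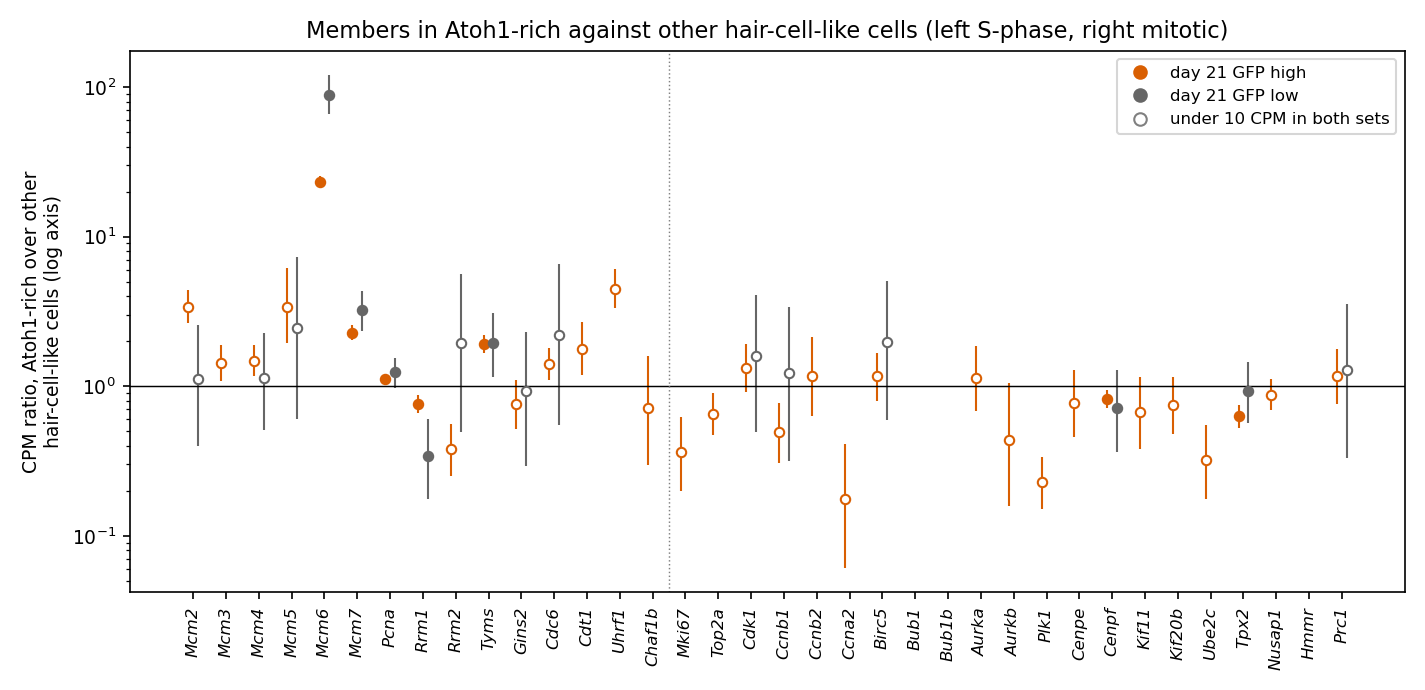
CPM ratio of each member in Atoh1-rich over other hair-cell-like cells on a log axis, in GFP high (orange) and GFP low (grey); bars are 95% counting intervals, open points are under 10 CPM on both sides, and members with 3 or fewer UMIs on either side are left out. Mcm6 stands at 23.3 and 88.3, apart from the others of both member groups.

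The size of the Mcm6 ratio, though not its direction, depended on how the cells were divided. It was 5.42 in GFP high with predicted doublets kept, 5.95 with finer clustering or with a marker gate in place of clusters, and 5.71 with the pathway genes kept in the clustering. In GFP low the marker gate gave 11.1, the pathway genes kept gave 34.6, doublets kept gave 49.8 and finer clustering 56.8. The lowest of all alternatives was 5.42 in GFP high and 11.1 in GFP low. The clusterings with doublets kept, at finer resolution and with pathway genes kept each had a further hair-cell-like cluster with Pvalb and Otof among its leading genes. It had 169 to 199 CPM of Atoh1 and was counted among the other cells, since only the cluster with the highest Grp was called Atoh1-rich. How far this moved the ratio was not tested.

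Over all hair-cell-like cells, bins with more Atoh1 had more Mcm6, which was not seen in Merkel-cell-like cells, the other Atoh1-bearing class. Cells were thinned to 3000 UMIs and binned by their Atoh1 UMIs, and levels were then summed over all UMIs of each bin. In hair-cell-like cells of GFP high, Mcm6 was at 80.7 CPM where no Atoh1 UMI was drawn, 244 CPM with 1, 282 CPM with 2 to 3 and 297 CPM with 4 or more, while the mitotic members stayed at 51.2, 37.9, 40.9 and 44.0 CPM. At day 16 Mcm6 was at 118, 151 and 168 CPM over the 3 bins with enough cells, and in GFP low at 12.1 and 119 CPM over 2. At day 20 it was at 83.5 and 134 CPM, and there the mitotic members went from 41.4 CPM in 94 cells to 272 CPM in 28 cells. Merkel-cell-like cells had 688 to 801 CPM of Atoh1, more than the Atoh1-rich hair-cell-like cells, and 2.88 to 7.18 CPM of Mcm6 over the libraries. Within single clusters of GFP high the rise was smaller or not steady. In the Atoh1-rich cluster Mcm6 went from 294 to 342 CPM (171 to 227 CPM at day 16), in the Ocm cluster it was at 6.14, 22.8 and 9.78 CPM with Atoh1 at 49.6, 226 and 329 CPM, and in the Cib3 cluster it was at 18.1 and 10.96 CPM with Atoh1 at 14.8 and 57.1 CPM. Most of the span over all hair-cell-like cells of GFP high thus lay between clusters. These bins come from the cells of single libraries and have no replicate.

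**Figure D5:**
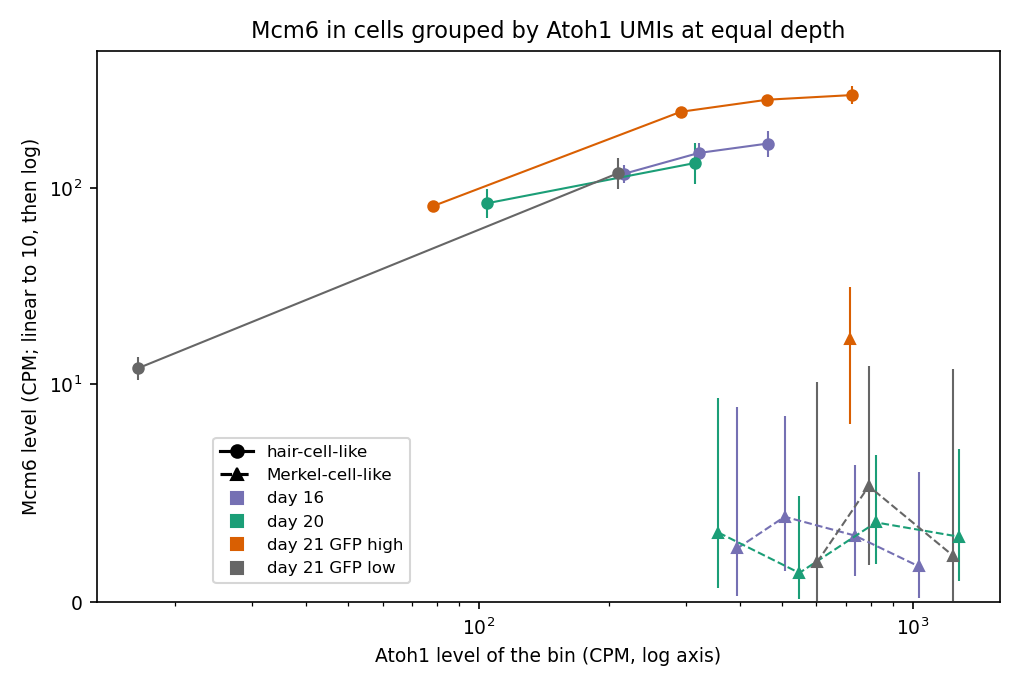
Mcm6 level (CPM, linear to 10 and logarithmic above) against the Atoh1 level (CPM, log axis) of cells binned by Atoh1 UMIs at 3000 UMIs per cell, for hair-cell-like (circles) and Merkel-cell-like cells (triangles) of each library (colour). Bars are 95% counting intervals, the drawn bins hold 27 or more cells, and smaller bins are not drawn. Hair-cell-like bins climb to 297 CPM of Mcm6, while the Merkel-cell-like bins, at 357 to 1276 CPM of Atoh1, stay at or under 17.0 CPM.

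Mcm6 lies on the minus strand at chr1:128331590-128359664 (GENCODE M21 gene bounds on GRCm38), and no other gene of the tables overlaps it. The nearest gene past its 3′ end, Lct, the intestinal lactase gene at chr1:128284756-128328318 on the same strand, had 1064 UMIs in Atoh1-rich and 25 in other hair-cell-like cells of GFP high, or 37.7 and 0.618 CPM, and 52 and 0 UMIs in GFP low. Its promoter window held none of the letters searched. Dars, on the 5′ side of Mcm6, was at 54.6 and 45.4 CPM in GFP high and 72.1 and 52.9 CPM in GFP low. Ubxn4, beyond Lct, was at 178 and 137 CPM in GFP high, and R3hdm1 at 78.3 and 76.7 CPM. Lct thus differed in the same direction as Mcm6, while the 3 other neighbours did not reach the fold. Whether Lct counts are transcripts of their own or reads that run past the end of Mcm6 was not tested.

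Counted per cell, few hair-cell-like cells had mitotic RNA. After thinning each cell to 3000 UMIs, 0.634% of hair-cell-like cells in GFP high (14 of 2209; exact interval 0.347 to 1.06) and 1.12% in GFP low (9 of 804) had UMIs of 2 or more mitotic members, with 13 and 15 shallower cells left out. In cells that were not hair-cell-like the shares were 4.52% and 7.24%, with 18 and 78 left out. Neurons are postmitotic, and neuron-like cells had 1.32% and 0.735% (5 and 50 left out). A UMI of any mitotic member was in 11.1% and 13.4% of hair-cell-like and 7.93% and 8.55% of neuron-like cells, and the mitotic sums in GFP high were 47.4 CPM (interval 45.8 to 49.1) and 36.01 CPM (31.1 to 41.4). The part of free RNA in these values was not tested. Without thinning the shares were 23.2% and 25.2% in hair-cell-like cells, 21.8% and 18.4% in the others, and 9.05% and 10.1% in neuron-like cells, whose median depths were 21053 and 20975 UMIs against 29909.5 and 25282 in hair-cell-like cells. Pluripotent-like cells of GFP low reached 95.5% at 3000 UMIs.

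Cells with S-phase RNA showed the opposite picture in the Atoh1-rich cluster. At 3000 UMIs, 17.2% of Atoh1-rich cells of GFP high had 3 or more S-phase UMIs, against 0.511% of other hair-cell-like cells and 2.20% of neuron-like cells (unthinned 92.8%, 55.3% and 72.4%). With Mcm6 left out, the share of Atoh1-rich cells was 0.95%. Of those with 3 or more, 10.4% also had a mitotic UMI, against 62.7% of such cells among the non-hair-cell-like cells of GFP high, 57.1% of those at day 16 and 62.3% of those at day 20. In GFP low the share was 77.1% (158 of 205 cells), and 79 of the 158 were pluripotent-like. A Mcm6 UMI was seen in 45.2% of Atoh1-rich and 3.36% of other hair-cell-like cells of GFP high, and in 0.881% of neuron-like cells (unthinned 86.6%, 20.4% and 16.8%). A mitotic UMI was present in 8.44% of the Mcm6-positive and 8.06% of the Mcm6-negative Atoh1-rich cells. In the non-hair-cell-like cells of GFP high, those shares were 28.6% and 12.4%, at day 16 40.2% and 14.4%, and at day 20 35.7% and 10.9%. In GFP low they were 61.5% and 13.4%, where 45 of the 75 cells with both were pluripotent-like. The non-hair-cell-like cells of GFP high are a mixed class, since they include the unnamed cluster led by Otol1, Pvalb and Otof. That cluster held 1427 of the 1950 Mcm6 UMIs of the class and had 39.1 CPM of mitotic members. At day 16 and day 20, 32.0% and 34.3% of Atoh1-rich cells had a Mcm6 UMI, and 12.5% of these cells in both libraries had a mitotic UMI, against 14.1% and 10.9% of those without. In GFP low the shares were 16.7% (5 of 30) and 9.38% (3 of 32).

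Other replication and mitosis genes, from lists of 51 and 57 genes, were compared in the same way. Between the gates over all cells, 16 of 35 other replication genes tested were lower in GFP high and 1 was higher, and 21 of 31 other mitosis genes were lower and 1 was higher, against 7.72% of all genes tested lower and 6.95% higher. Hells, a chromatin remodeller, was at 11.4 and 44.6 CPM, and Lig1, the ligase that joins Okazaki fragments, at 13.2 and 40.4 CPM. Cdc20, the activator of the anaphase-promoting complex, was at 8.68 and 32.6 CPM. Cdc25b, a phosphatase that activates cyclin-dependent kinases, was the mitosis gene that was higher, at 71.0 and 14.4 CPM. Without the pluripotent-like cluster, 2 of 28 and 6 of 23 were lower, against 7.36% of all genes, so the replication count was then near the share over all genes. There 1 of the 28 replication genes was higher, against 6.27% of all genes. That gene was Pole, at 48.0 CPM in GFP high and 15.2 in GFP low (ratio 3.16, interval 2.97 to 3.36).

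Between Atoh1-rich and other hair-cell-like cells the genes called from the same lists went in both directions. Of 20 other replication genes tested in GFP high, 0 were higher and 2 lower, and of 10 other mitosis genes 3 were higher and 2 lower, against 7.83% of all genes higher and 8.05% lower. In GFP low 5 of 12 other mitosis genes were higher and 2 lower, against 10.8% and 14.9% of all genes, and at day 16 3 of 15 were higher and 4 lower, against 5.85% and 8.01%. Smc2, a condensin subunit, was higher at 53.7 against 7.77 CPM in GFP high, and likewise in GFP low (90.1 and 7.46), at day 16 (66.5 and 9.77) and at day 20 (31.4 and 4.25). Cdc25b was higher at 150 against 49.96 CPM in GFP high. Nek2, a centrosome kinase, was lower at 16.5 against 89.9 CPM and Ect2, the exchange factor that starts the cleavage furrow, at 8.25 against 54.6 CPM. Rpa1, which coats single-stranded DNA, was lower at 16.8 against 37.5 CPM.

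Inhibitors of the cell cycle stood on both sides of this contrast. Cdkn1c (p57), an inhibitor of cyclin-dependent kinases, was at 1364 against 139 CPM in GFP high, 1655 against 88.7 in GFP low, 1335 against 247 at day 16 and 1619 against 111 at day 20. Cdkn1a (p21), of the same family, was at 659 against 110 CPM in GFP high and 941 against 254 CPM at day 16. Cdkn2d (p19), which inhibits Cdk4 and Cdk6, was lower in the Atoh1-rich cells, at 284 against 658 CPM in GFP high, 164 against 559 CPM in GFP low and 412 against 1050 CPM at day 20. At day 16 it was at 246 and 435 CPM and did not reach the fold. Cdk4 was at 283 and 130 CPM in GFP high. The Atoh1-rich cells thus had more Mcm6 together with more Cdkn1c and Cdkn1a in each of the 4 libraries, each past the fold.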

How the data were processed

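Single cells of organoids were measured in 4 libraries, 1 per group, so intervals (95%) cover counting error only and no test was possible. The authors deposited unnormalised counts of UMIs for each gene in each cell barcode, made with Cell Ranger 6.1.2 per the file headers; the submitters' processing notes name Cell Ranger 6.1.0, Seurat 4.0.6 and mm10. The gene annotation used for counting is not given in the sources used here.

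Cells with at least 1000 genes and at most 15% mitochondrial UMIs were kept. Scrublet's own threshold marked only 1, 66, 3 and 4 cells, so a rate of 0.8% per 1000 barcodes was used, which removed 120, 205, 109 and 137 cells. Clusters came from Scanpy 1.11.5 with leidenalg 0.10.2 (2000 variable genes, 30 components, 20 neighbours, resolution 1), leaving out all pathway genes, and were named from 16 marker lists by a rule settled after the clusters were seen. The Atoh1-rich cluster was the hair-cell-like cluster with the highest Grp CPM. In the marker gate, Atoh1-rich cells were hair-cell-like cells with 2 or more Grp UMIs. UMIs were summed per class and library, and 8 comparisons were made as CPM ratios with exact binomial intervals; log2 medians use CPM plus a pseudocount of 1. A gene was tested from 10 CPM in either sum and called at a ratio of 2. Thinning drew 3000 UMIs per cell. Shares of cells have exact Clopper-Pearson intervals.

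Scaling by edgeR 4.0.16 (TMM) and DESeq2 1.42.0 (median of ratios), other folds, filters, clusterings and a marker gate were the alternatives. The scripts were tested on simulated data. All 36 members entered the counts, but Ccnb2, Bub1b, Kif20b, Nusap1 and Hmmr are not described singly. Also described are, of each other pathway list, up to 4 genes with the largest change at 20 CPM or more, and Atoh1, Egfp and Grp. The genes neighbouring Mcm6, and values of named genes in further libraries, were added after their values were seen. The members and lists were chosen with earlier results of these data known.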

Additional observations from a re-analysis of the deposited data

How the results depend on the processing

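No paired analysis was possible because each group is 1 library, so that the groups share fewer than 2 replicate numbers, and no replicate could be left out. Of the alternative values for counts of members called, shares of cells and promoter shares, 171 stayed within their limit and 42 moved. A reversal could be recorded only for counts with more calls in 1 direction, not for shares or counts of 0, and none was recorded. The Mcm6 ratios were not among these values. In cells that were not hair-cell-like the ratio between the gates ranged from 0.385 to 1.77. The share of all genes called was computed for only 1 alternative, the gates over all cells without the pluripotent-like cluster. A mean of CPM per cell was called without a counting interval. For the gates over all cells, a mean of CPM per cell gave 7 S-phase and 8 mitotic members called (11 and 21 as reported), and leaving out the pluripotent-like cluster, chosen after seeing the data, gave 4 and 3. For day 20 over day 16, a fold of 1.5 gave 6 S-phase and 1 mitotic member (1 and 0), a fold of 3 gave 0 S-phase members, and leaving out the 10 cells with most UMIs of each gene gave 2. For the gates in hair-cell-like cells (1 and 0), no filter on low counts gave 2 and 4, a fold of 1.5 gave 3 and 1, the marker gate gave 2 and 2, and leaving out Mcm6, also chosen after seeing the data, gave 0 S-phase members. For the other cells (9 and 9), a fold of 1.5 gave 19 mitotic members, a fold of 3 gave 3 and 0, the mean of CPM per cell gave 2 and 0, leaving out 10 cells gave 21 mitotic members, resolution 0.5 and the marker gate gave 1 each, pathway genes kept in the clustering gave 5, and leaving out the pluripotent-like cluster gave 2 and 0. For Atoh1-rich over other hair-cell-like cells of GFP high (2 and 0), no filter gave 6 and 6, a fold of 1.5 gave 1 mitotic member, and S-phase members came to 1 with a fold of 3, 1 with the marker gate, 4 with pathway genes kept and 1 without Mcm6. In GFP low the mitotic members (0) came to 1 without the 10 cells, 1 with doublets kept and 13, all higher, with the marker gate. Thinning to 5000 UMIs raised the share of hair-cell-like cells with 2 or more mitotic members in GFP high from 0.634% to 1.36%. It raised the share of cells with 3 or more S-phase UMIs and no mitotic UMI from 6.11% to 11.7% in hair-cell-like and 1.84% to 5.86% in other cells of GFP high, and from 1.37% to 2.77% and 1.69% to 4.4% in GFP low. With TTTGGCG and its CC form alone, 4.84% of all promoters held E2F-like letters. The causes of these moves were not tested, other than that fewer or more genes are tested under another filter or fold. Scaling by TMM and by median of ratios moved all log2 ratios by 0.12 and 0.14 for the gates and by 0.19 and 0.21 for the days. The Mcm6 ratio of Atoh1-rich over other hair-cell-like cells ranged from 5.42 to 27.0 in GFP high and from 11.1 to 89.8 in GFP low over 14 alternatives each. Depth limits the day 20 values most, where Atoh1-rich and other hair-cell-like cells together number 147.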

Other observations

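A centrosome, a cytokinesis and a DNA-binding gene were lower in Atoh1-rich cells in 3 or more libraries. Nek2 was at 9.01 CPM in Atoh1-rich and 166 CPM in other hair-cell-like cells of GFP low (ratio 0.0543, interval 0.0297 to 0.0913), and at 9.71 and 78.3 CPM at day 20, while at day 16, with 10.5 and 16.8 CPM, it did not reach the fold. Ect2 was lower in the Atoh1-rich cells of all 4 libraries, with 2.75 and 20.1 CPM at day 16, 9.71 and 27.2 CPM at day 20, and 5.15 and 43.1 CPM in GFP low. Rpa1 was likewise lower in all 4, with 12.8 and 27.7 CPM at day 16, 10.5 and 29.8 CPM at day 20, and 11.6 and 30.5 CPM in GFP low.

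Ccnd2, a cyclin that partners Cdk4 and Cdk6 in G1, was higher in Atoh1-rich cells in 3 libraries, with 64.4 and 14.7 CPM at day 16, 24.6 and 2.55 CPM at day 20, where the second value rests on 3 UMIs (ratio 9.66, interval 3.03 to 49.2), and 67.0 and 19.7 CPM in GFP low. In GFP high it was at 14.5 and 11.4 CPM and did not reach the fold. Between day 16 and day 20 over all cells, Ccnd1 was lower, at 109 and 26.7 CPM, and Cdkn1c was higher, at 595 and 1257 CPM.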
